A study of Mus musculus with 24 samples.

Results

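Macrophage and myeloid marker genes were followed in mouse hearts after myocardial infarction (MI) or a sham operation. The set held 35 genes of 14763 tested, named by symbol, and each was read from 1 probe set, the brightest over 24 arrays. All 35 passed the filter on low signal. By role they were 5 markers of resident tissue macrophages, 4 markers of recruited monocytes and their descendants, 4 genes of lipid-handling and scar macrophages, 11 pan-macrophage genes, 3 chains of complement C1q, 4 Fc receptors and signalling adaptors, and 4 pan-leukocyte genes. Total RNA of FVB/N mouse hearts, each homogenized individually, was hybridized to Affymetrix arrays in 6 groups of 4 arrays. Ntg mice carried no transgene. The dnPI3K mice carried a dominant negative phosphoinositide 3-kinase transgene in the heart, with reduced activity of the enzyme, and the caPI3K mice a constitutively active one, with increased activity. Each genotype had a sham and an MI group, operated on at 4 months of age and taken 8 weeks later. The sources used here do not name the promoter that drives either transgene. The labels leave unsaid whether arrays of a group came from different animals. The p-values therefore reflect only how these arrays varied, which may be technical. A tag name on the caPI3K MI arrays reads sham, while their titles, descriptions and tag text all say MI, and they were used as MI.

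Macrophages live in the healthy heart as long-lived resident cells, many of fetal origin, which clear debris and dying cells. After an infarct, bone marrow monocytes enter the tissue through the receptor Ccr2 and become macrophages that remove dead muscle and later take part in scar formation. Growth and survival of both populations depend on the receptor Csf1r. Many of the genes here are switched on in the myeloid lineage by the transcription factor PU.1, encoded by *Spi1*.

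Values are log2(signal + 11.2), where the signal is the deposited MAS5 value and 11.2 is its median divided by 10. A change is a difference in this log2 signal, and it understates the change of dim genes. A gene was called when its adjusted p (limma, Benjamini-Hochberg over all 14763 genes) was under 0.05. The tissue was heart by its defining markers: group means of *Myh6*, cardiac myosin heavy chain, ran from 15.69 to 16.03 and those of *Tnnt2*, cardiac troponin T, from 15.76 to 16.04. Some arrays stood apart. Ntg sham replicate 4 had a fibroblast list (10 genes) 0.30 above its mean over all arrays, where the other Ntg sham arrays were at -0.70, -0.58 and -0.67 and every MI array was at 0.12 or more. On dnPI3K MI replicate 1 the median signal was 151, against 103 to 119 on the other 23 arrays. 3 of the 4 caPI3K sham arrays (replicates 1, 2 and 3) had signal of the Y-linked gene *Eif2s3y* above that of *Xist*, and the labels do not give sex. The Ntg and dnPI3K sham replicates 1 and 2 carry the neighbouring array numbers 415 to 418. Some of the results that rest on these arrays are given with and without them, and the part of each array in the results was not tested further.

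Sequence before the start of 3 members is shown because their levels moved together across arrays. It could also be searched for GAGGAAG, 1 form of the letters that PU.1 reads. The 3 are the members of highest covariation whose window in the RefSeq table lies outside annotated genes (build GRCm38.p6). Each is printed 5′ to 3′ on the minus strand, which is the strand of the gene, with a match in capitals. *Cd53*, a tetraspanin of leukocytes, has its window at chr3:106790150-106790399. *C1qc*, a chain of complement C1q, has it at chr4:136892937-136893164. *Cd68*, a glycoprotein of macrophage lysosomes, has it at chr11:69666171-69666420.
Cd53: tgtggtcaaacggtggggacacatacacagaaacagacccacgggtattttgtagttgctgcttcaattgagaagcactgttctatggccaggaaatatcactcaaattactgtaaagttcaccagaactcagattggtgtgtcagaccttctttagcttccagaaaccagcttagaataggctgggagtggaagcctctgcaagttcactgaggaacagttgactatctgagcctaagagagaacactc
C1qc: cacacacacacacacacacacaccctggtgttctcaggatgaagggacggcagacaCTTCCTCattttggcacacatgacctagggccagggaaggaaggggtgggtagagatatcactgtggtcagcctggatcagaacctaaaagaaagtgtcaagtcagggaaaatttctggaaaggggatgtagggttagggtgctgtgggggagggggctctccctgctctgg
Cd68: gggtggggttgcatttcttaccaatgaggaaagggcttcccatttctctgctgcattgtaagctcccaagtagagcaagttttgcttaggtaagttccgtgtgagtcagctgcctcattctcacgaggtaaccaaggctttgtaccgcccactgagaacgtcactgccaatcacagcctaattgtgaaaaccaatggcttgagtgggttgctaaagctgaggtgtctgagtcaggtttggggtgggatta
The *C1qc* window held 1 match, CTTCCTC, which is GAGGAAG on the opposite strand, 172 bases before the printed end. No match was found in the windows of *Cd53* and *Cd68*, which says only that this full string is not there. Both windows hold the shorter GAGGAA, followed by a different letter. Over both strands of the 250 bases before the start, 8 of 32 windows of members held the letters, a share of 25%, against 3486 of 32851 windows of all genes, a share of 10.6%. The 8 windows belonged to 7 of 28 members in the table, namely *C1qc*, *Ctsk*, *Fcgr3*, *Itgam*, *Laptm5*, *Mrc1* and *Trem2*. *Adgre1*, *C1qa*, *Cd14*, *Csf1r*, *Itgb2*, *Lyve1* and *Tyrobp* had no window in the table.

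Averaged over the 3 genotypes, 8 of the 35 genes rose after infarction and none fell. The 8 were *Laptm5*, *Cd14*, *C1qc*, *Ctsk*, *Tyrobp*, *Ms4a7*, *C1qa* and *Lyz2*, and their rises were small, from 1.23-fold to 1.45-fold. That was 22.9% of the members, where 6.81% of all tested genes rose, 6.76% fell and 13.6% changed in either direction. No resident marker was among them, and *Laptm5* was called on only 1 of its 5 probe sets. Of the 35 changes, 33 were above 0, a share of 94.3% against 49% over all genes tested, and their median was 0.31 against 0.00. At an unadjusted p under 0.05 the count was 17 of 35, or 48.6%, against 24.8% of all genes. In whole heart, more cells of a type and more RNA per cell cannot be told apart. Fibroblast genes moved with these groups: 9 of 10 rose, with a median change of 0.89, and their part in the result was not tested. The count was sensitive to the sham arrays. Without the sham arrays numbered 415 to 418 limma with Benjamini-Hochberg adjustment called 0 of 35 (6 at an unadjusted p under 0.05), with 994 genes called in place of 2004 and a median change of the members of 0.22. Without the 3 caPI3K sham arrays with Y-linked signal it called 3, *Cd14*, *C1qc* and *Ctsk*, with a median of 0.27. Leaving out single arrays gave 5 to 12 calls. It gave 5, a fall of over 1.5 times, without Ntg sham replicate 1, Ntg sham replicate 2, Ntg MI replicate 1, dnPI3K sham replicate 4, dnPI3K MI replicate 4, caPI3K sham replicate 2 or caPI3K MI replicate 4. It gave 12 without dnPI3K sham replicate 3. The shares of all genes called in these fits are not given here, so the counts have no background. Without Ntg sham replicate 4 *C1qb*, at 0.37 (adjusted p = 0.024), and *Fcer1g*, at 0.45 (adjusted p = 0.0323, limma), were called beside the 8.

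**Figure D1:**
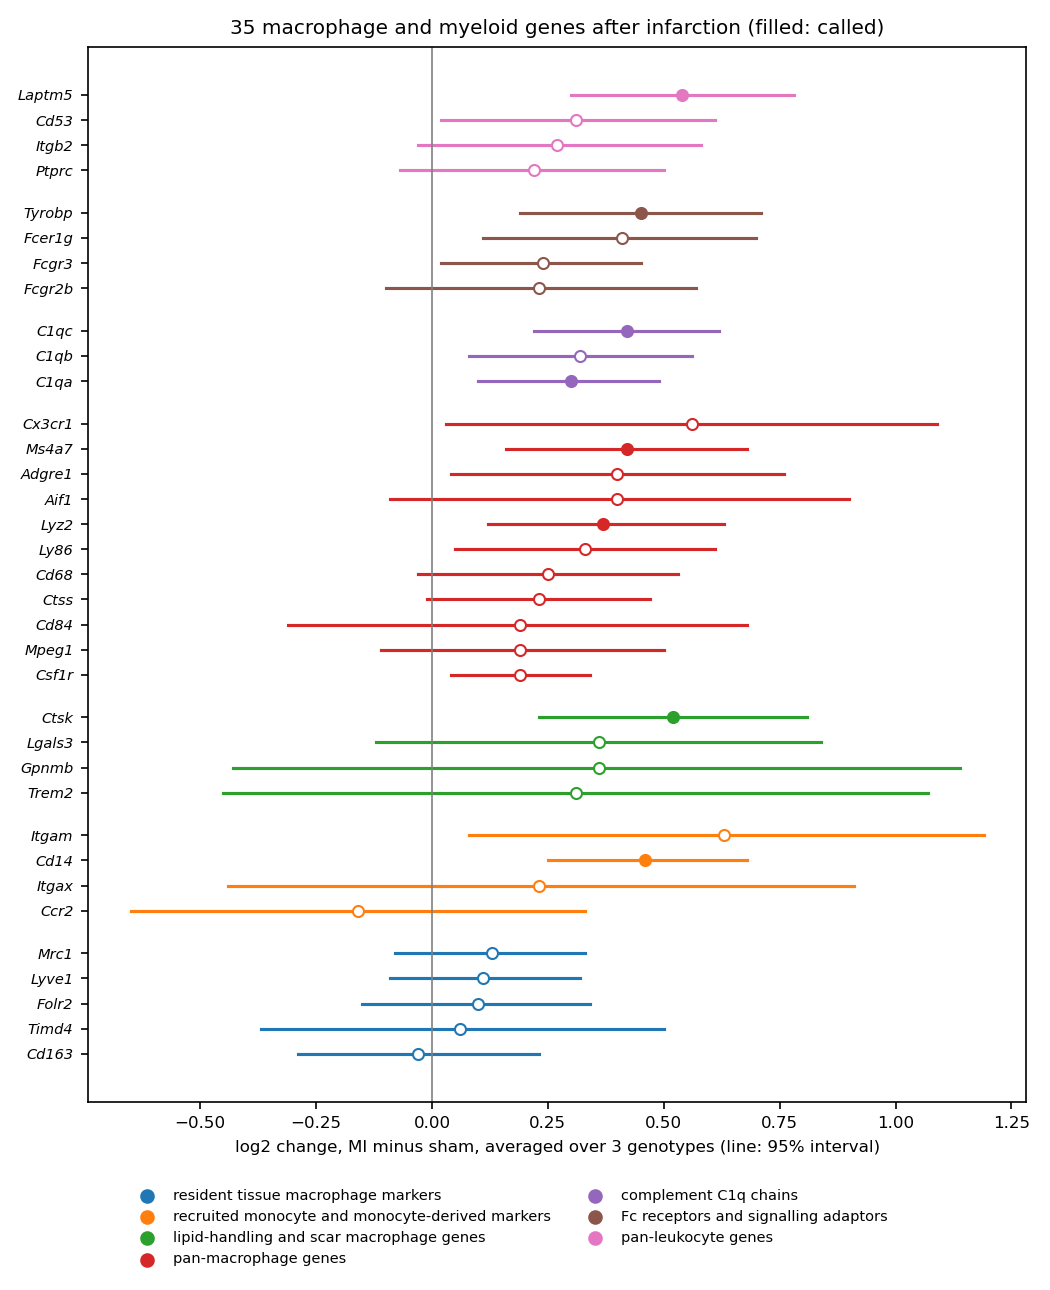
Change in log2 signal after infarction for the 35 genes (horizontal axis, log2; MI minus sham averaged over 3 genotypes), grouped by role, with the 95% interval as a line and called genes as filled points. 33 of the 35 points lie above 0, the 8 filled ones run from 0.30 to 0.54, and the 5 resident markers lie between -0.03 and 0.13.

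None of the 5 resident markers was called in any of the 10 comparisons fitted on all arrays. They are receptors of scavenging and clearance. *Lyve1*, a hyaluronan receptor that lymphatic vessels also carry, was 10.13, 10.0, 10.71 and 10.12 on the Ntg sham arrays and 10.95, 10.47, 9.88 and 10.39 on the Ntg MI arrays. On dnPI3K arrays *Lyve1* was 10.63, 10.34, 10.67 and 10.46 after sham and 10.67, 10.14, 10.07 and 10.46 after MI. On caPI3K arrays *Lyve1* was 10.08, 9.98, 10.21 and 10.27 after sham and 10.67, 10.27, 10.44 and 10.57 after MI. Sham and MI values overlapped in each genotype, with 3 of 4 caPI3K MI arrays above the highest caPI3K sham array. Its averaged change was 0.11 (95% interval -0.09 to 0.32), with 0.18 in Ntg, -0.19 in dnPI3K and 0.35 in caPI3K.

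*Folr2* encodes folate receptor beta. Its Ntg arrays read 8.89, 9.25, 9.51 and 9.59 after sham and 9.92, 9.21, 8.91 and 9.26 after MI. The dnPI3K arrays read 9.17, 9.27, 9.86 and 9.45 and 9.57, 9.05, 8.85 and 9.87 for *Folr2*. The caPI3K arrays read 9.24, 9.06, 9.19 and 9.20 and 9.62, 9.26, 9.62 and 9.74, so that all 4 caPI3K MI arrays lay above the 4 sham arrays. The other genotypes overlapped. *Folr2* differed by 0.10 on average (-0.15 to 0.34), and by 0.39 (-0.04 to 0.81) in caPI3K hearts.

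*Timd4* encodes a receptor for phosphatidylserine on dying cells and is dim here, above its array's 40th percentile on 21 of 24 arrays. Ntg values of *Timd4* were 6.68, 7.64, 6.73 and 7.12 after sham and 7.77, 6.40, 6.77 and 6.92 after MI. Those of dnPI3K were 7.19, 7.48, 6.79 and 6.48 and 6.61, 6.93, 6.30 and 7.52. Those of caPI3K were 6.30, 6.47, 7.22 and 7.82 and 7.50, 7.15, 6.84 and 7.94. Its groups overlapped in each genotype, and the averaged change was 0.06 (-0.37 to 0.50).

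*Cd163* is the scavenger receptor for haemoglobin bound to haptoglobin. In Ntg hearts *Cd163* read 8.70, 8.06, 9.01 and 8.42 after sham and 9.20, 8.98, 8.47 and 8.45 after MI. In dnPI3K hearts it read 8.79, 9.43, 9.15 and 8.70 after sham and 8.97, 8.87, 7.94 and 8.75 after MI. In caPI3K hearts the values lay close together, 8.44, 8.33, 8.44 and 8.52 after sham and 8.44, 8.61, 8.44 and 8.49 after MI. Every dnPI3K sham array was above all 8 caPI3K arrays. After MI the dnPI3K values spread downwards, with replicate 3 lowest at 7.94. Its averaged change was -0.03 (-0.29 to 0.23). Within dnPI3K it was -0.39 (-0.83 to 0.06), or -0.15 without MI replicate 3.

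*Mrc1*, the mannose receptor, gave 10.45, 10.66, 10.49 and 11.01 on Ntg sham arrays and 11.13, 10.49, 10.89 and 10.66 on Ntg MI arrays. The dnPI3K arrays gave 10.65, 10.51, 10.95 and 10.48 after sham and 10.89, 10.45, 10.04 and 11.23 after MI. The caPI3K arrays gave 10.64, 10.54, 10.73 and 10.49 after sham and 10.83, 10.74, 10.91 and 10.85 after MI, the latter 4 all higher. In Ntg and dnPI3K hearts the operations overlapped, and dnPI3K MI held both the highest and the lowest array. *Mrc1* differed by 0.13 on average (-0.08 to 0.33).

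Of the 4 recruited markers, *Cd14* rose and the other 3 were not called. The role is the name of a list, and which cells gave the signal of these genes was not tested. *Cd14*, the coreceptor that presents bacterial lipopolysaccharide to the Toll-like receptor Tlr4, was 9.78, 9.87, 10.05 and 9.86 on Ntg sham arrays and 10.46, 10.32, 9.81 and 10.14 on Ntg MI arrays. In dnPI3K hearts *Cd14* was 9.78, 9.68, 10.78 and 9.54 after sham and 10.50, 10.57, 10.32 and 10.41 after MI. In caPI3K hearts it was 9.70, 9.53, 9.66 and 9.59 after sham and 10.29, 10.04, 9.96 and 10.54 after MI. The caPI3K groups did not overlap. Those of dnPI3K overlapped only through sham replicate 3 at 10.78, and 3 of 4 Ntg MI arrays lay above every Ntg sham array. The averaged change was 0.46 (SE 0.10, 0.25 to 0.68), a 1.38-fold rise (adjusted p = 0.003, limma). *Cd14* remained called in each of the 24 fits that left out 1 array, with changes from 0.42 to 0.56. Without arrays 415 to 418 its adjusted p (limma) was 0.078.

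*Ccr2*, the chemokine receptor of inflammatory monocytes, was 6.93, 7.45, 7.29 and 7.33 on Ntg sham and 6.96, 6.81, 7.17 and 4.15 on Ntg MI arrays. The dnPI3K values of *Ccr2* were 7.45, 7.23, 7.18 and 6.90 after sham and 7.86, 7.40, 7.10 and 6.95 after MI. Those of caPI3K were 7.0, 7.23, 7.45 and 7.01 after sham and 7.82, 7.14, 7.57 and 7.59 after MI. Ntg MI replicate 4, at 4.15, lay far below all other 23 arrays, and the groups overlapped otherwise. The change in Ntg hearts was -0.98 (-1.83 to -0.13, adjusted p = 0.317 by limma), and -0.27 without that array. Averaged, *Ccr2* differed by -0.16 (-0.65 to 0.33), or by 0.08 without it. The direction also turned with the probe set. Both other *Ccr2* probe sets that passed the filter gave averaged changes above 0, at 0.18 and 0.08, and in Ntg hearts they gave 0.64 and -0.09.

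*Itgam*, the integrin chain of CD11b, was 5.88, 6.71, 7.0 and 7.30 after sham and 7.33, 6.0, 6.77 and 6.67 after MI in Ntg hearts. Its dnPI3K arrays were at 6.92, 6.70, 7.51 and 5.73 after sham and 6.97, 7.25, 8.54 and 7.57 after MI. The caPI3K sham arrays were at 6.71, 4.21, 6.52 and 6.34 and the MI arrays at 7.0, 6.84, 7.14 and 7.05, with no overlap. One caPI3K sham array, replicate 2 at 4.21, was the lowest of all, and dnPI3K MI replicate 3 at 8.54 the highest. Averaged, *Itgam* had the largest estimate of the 35, at 0.63 (SE 0.27, 0.08 to 1.19), and it missed the threshold (adjusted p = 0.136, limma). In caPI3K hearts the change was 1.06, or 0.48 without sham replicate 2, and in Ntg hearts it was -0.03.

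*Itgax*, the integrin chain of CD11c found on dendritic cells too, was above its array's 40th percentile on only 11 of 24 arrays. Ntg hearts read 6.12, 5.77, 5.55 and 4.62 after sham and 6.01, 6.09, 6.77 and 6.06 after MI for *Itgax*. The dnPI3K hearts read 6.82, 6.58, 7.44 and 6.13 and 7.03, 7.28, 6.99 and 6.27. The caPI3K hearts read 4.24, 6.56, 7.09 and 6.31 and 5.0, 4.48, 6.86 and 7.20. The 2 operations overlapped in each genotype. At such dim signal a change of 0.23 (-0.44 to 0.91) was not detectable.

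**Figure D2:**
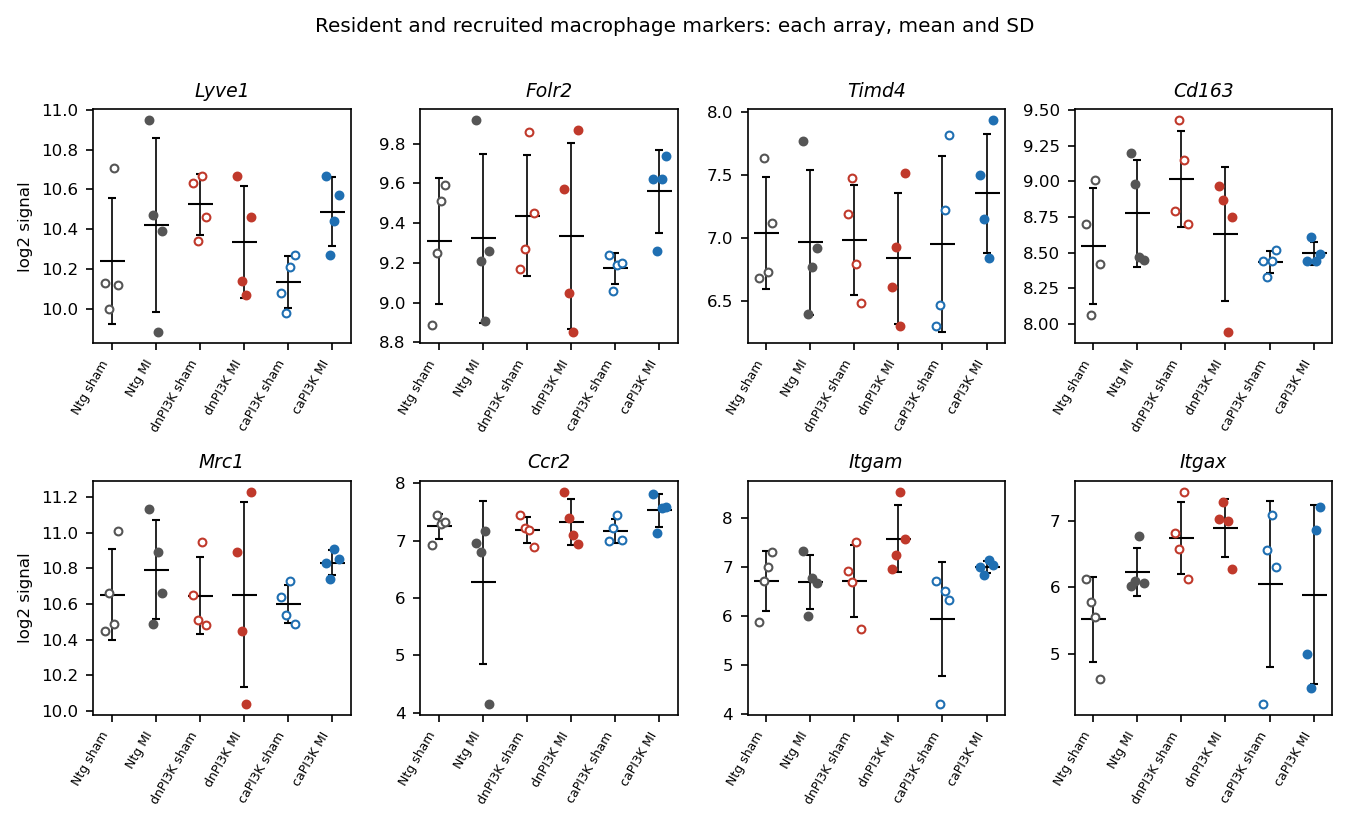
Log2 signal (vertical axis) of the 5 resident markers and of *Ccr2*, *Itgam* and *Itgax* on each array (points; open after sham, filled after MI), with group means and SD (bars, n = 4). *Ccr2* on Ntg MI replicate 4 (4.15) and *Itgam* on caPI3K sham replicate 2 (4.21) lie far below the rest, and *Cd163* lies between 8.33 and 8.61 on all caPI3K arrays.

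The balance of resident against recruited markers was summarised on each array as the mean deviation of the 5 resident genes minus that of the 4 recruited genes, each deviation taken from the gene's mean over 24 arrays. It was 0.12, 0.00, 0.14 and 0.30 on Ntg sham arrays and 0.43, 0.13, -0.32 and 0.70 on Ntg MI arrays. In dnPI3K hearts it was -0.13, 0.18, -0.41 and 0.37 after sham and -0.42, -0.71, -1.27 and 0.09 after MI. In caPI3K hearts it was 0.35, 0.32, -0.20 and 0.27 after sham and 0.21, 0.41, -0.31 and -0.25 after MI. The dnPI3K MI group was lowest, with a mean of -0.58 (SD 0.57, n = 4), and 3 of its 4 arrays lay below the lowest dnPI3K sham array. Without replicate 3 its mean was -0.35 (SD 0.41, n = 3), and without replicate 4 -0.80. The other group means ran from 0.00 to 0.24. The highest, that of Ntg MI, was 0.08 without replicate 4, where *Ccr2* read 4.15, and 0.42 without replicate 3. In all 3 genotypes the sham and MI arrays overlapped. In dnPI3K MI the recruited markers were at 0.52 (SD 0.19, n = 4) and the resident markers at -0.06 (SD 0.40, n = 4) relative to their 24-array means. Of the recruited markers the dim *Itgam* and *Itgax* lay furthest above, at 7.58 and 6.89 against 24-array means of 6.78 and 6.22. *Itgax* was already at 6.74 in dnPI3K sham hearts. The score is a description, with no test, since its members were chosen with results known.

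**Figure D3:**
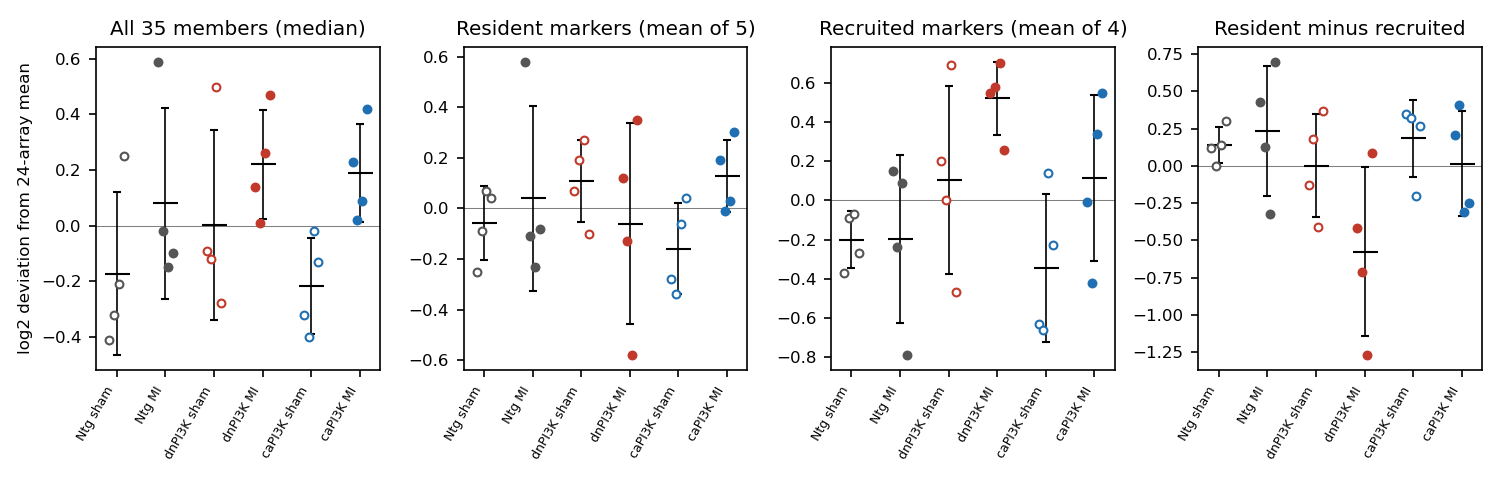
Summary deviation per array (vertical axis, log2, relative to the 24-array mean) of all 35 genes (median), of the resident markers, of the recruited markers, and of resident minus recruited (means), with group mean and SD (bars, n = 4). The dnPI3K MI arrays lie lowest for resident minus recruited, at -0.58 on average, and the sham and MI groups overlap in that panel in all 3 genotypes.

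Of the 4 genes of lipid-handling and scar macrophages, *Ctsk* rose. It encodes cathepsin K, a protease that cuts collagen and that fibroblasts also make. *Ctsk* was 8.75, 8.43, 8.65 and 9.65 on Ntg sham arrays and 9.55, 9.25, 9.71 and 9.20 on Ntg MI arrays. The dnPI3K arrays stood at 9.04, 9.25, 9.97 and 9.19 after sham and 9.24, 10.17, 9.42 and 10.07 after MI. The caPI3K arrays stood at 8.59, 8.50, 9.39 and 8.69 after sham and 9.39, 9.50, 9.36 and 9.48 after MI. Ntg groups overlapped through sham replicate 4 at 9.65, caPI3K groups through sham replicate 3 at 9.39, and dnPI3K groups more broadly. The averaged change was 0.52 (SE 0.14, 0.23 to 0.81), a 1.43-fold rise (adjusted p = 0.0117, limma). Without Ntg sham replicate 4 the change within Ntg hearts went from 0.56 (adjusted p = 0.331) to 0.82 (adjusted p = 0.0349, limma).

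*Trem2*, a lipid receptor, *Gpnmb*, a lysosomal glycoprotein, and *Lgals3*, galectin-3, were named with values after these were seen, because 1 array stood out. On dnPI3K sham replicate 3 they read 7.92, 9.69 and 10.92, and the other 3 dnPI3K sham arrays read 5.28 to 5.53, 4.44 to 7.33 and 8.14 to 8.43. *Trem2* was above its array's 40th percentile on 8 of 24 arrays and *Gpnmb* on 20. Averaged changes were 0.31 for *Trem2*, 0.36 for *Gpnmb* and 0.36 for *Lgals3*, and none was called. Without that array the change of *Lgals3* in dnPI3K hearts went from 0.30 to 0.96, and was called. *Gpnmb* went from 0.48 to 1.35 and *Trem2* from -0.33 to 0.28. A second *Trem2* probe set gave 0.47 in dnPI3K hearts with all arrays.

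Among the 11 pan-macrophage genes, *Ms4a7* and *Lyz2* rose. *Ms4a7* encodes a membrane protein of tissue macrophages. Its Ntg values were 9.11, 8.87, 9.29 and 10.05 after sham and 10.28, 9.35, 9.54 and 9.46 after MI. On dnPI3K arrays *Ms4a7* read 9.38, 9.55, 9.90 and 9.23 after sham and 10.12, 9.98, 9.86 and 10.53 after MI. On caPI3K arrays it read 9.58, 9.02, 9.68 and 9.36 after sham and 9.60, 9.52, 9.74 and 10.06 after MI. The 4 dnPI3K MI arrays lay above 3 of 4 dnPI3K sham arrays, and sham replicate 3 at 9.90 fell among them. In Ntg hearts sham replicate 4 lay above 3 of the MI arrays, and the caPI3K groups overlapped as well. The averaged change was 0.42 (SE 0.13, 0.16 to 0.68), 1.34-fold (adjusted p = 0.0255, limma). It was lost in 7 of the 24 fits without 1 array, and a second probe set, never above the 40th percentile on any array, gave -0.12.

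*Lyz2*, lysozyme M, an enzyme that breaks bacterial walls, read 12.55, 12.99, 12.94 and 13.39 after sham and 13.76, 13.07, 13.10 and 13.03 after MI in Ntg hearts. In dnPI3K hearts *Lyz2* read 13.12, 13.09, 13.85 and 12.77 after sham and 13.16, 13.31, 14.15 and 13.67 after MI. In caPI3K hearts *Lyz2* read 12.93, 12.63, 12.98 and 12.96 after sham and 13.56, 13.14, 13.15 and 13.58 after MI. The caPI3K groups did not overlap, and the others did. *Lyz2* changed by 0.37 on average (SE 0.12, 0.12 to 0.63), 1.30-fold (adjusted p = 0.0396, limma), and was lost in 13 of 24 fits without 1 array.

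*Cx3cr1*, the receptor of fractalkine, differed between sham groups and is described there too. Ntg values of *Cx3cr1* were 6.69, 6.61, 7.08 and 7.27 after sham and 7.29, 7.15, 8.06 and 5.56 after MI. On dnPI3K arrays *Cx3cr1* was 6.86, 5.89, 6.76 and 5.03 after sham and 6.92, 7.15, 8.33 and 6.81 after MI. On caPI3K arrays *Cx3cr1* was 7.21, 7.46, 7.78 and 7.69 after sham and 8.42, 7.17, 7.73 and 8.45 after MI. The 8 caPI3K arrays were all at 7.17 or higher, the Ntg and caPI3K operations overlapped, and 3 of 4 dnPI3K MI arrays lay above every dnPI3K sham array. It was above the 40th percentile on 21 of 24 arrays. Its averaged change was 0.56 and was not called (adjusted p = 0.169, limma).

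The other 8 pan-macrophage genes had averaged changes from 0.19 to 0.40, all above 0 and none called. They were *Cd68*, the receptor *Csf1r*, the F4/80 gene *Adgre1*, the pore-forming gene *Mpeg1*, the calcium-binding gene *Aif1*, the adhesion gene *Cd84*, *Ly86*, whose product binds a Toll-like receptor homologue, and the lysosomal protease *Ctss*. *Cd84* was above the 40th percentile on 23 of 24 arrays.

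One array, dnPI3K MI replicate 3, had an unusual mix of levels, and the genes of this paragraph were chosen after their values were seen. *Adgre1* read 9.50, 9.41, 11.69 and 9.76 on the dnPI3K MI arrays, and the other 20 arrays lay between 8.72 and 9.87. *Aif1* read 7.26, 7.72, 10.08 and 8.49 on them, and *Fcer1g*, the common gamma chain of Fc receptors, 9.71, 9.01, 10.73 and 9.76. On the same array *Fcgr2b*, the inhibitory Fc receptor, was low, with dnPI3K MI values of 10.20, 10.25, 8.71 and 10.69. *Fcgr3* was lowest there too, at 9.55 against 10.17 to 10.57 on the rest of the group. So were all the resident markers, *Lyve1* (10.07), *Folr2* (8.85), *Timd4* (6.30), *Cd163* (7.94) and *Mrc1* (10.04). *Itgam* (8.54), *Cx3cr1* (8.33) and *Lyz2* (14.15) were highest there. A list of neutrophil markers was at 0.82 on this array and at -1.02, -0.33 and 0.17 on the other dnPI3K MI arrays, and its part in the mix was not tested. Leaving the array out took the change in dnPI3K hearts from 0.83 to 0.29 for *Adgre1*, from 0.51 to -0.05 for *Aif1*, from 0.53 to 0.22 for *Fcer1g*, and from -0.17 to 0.25 for *Fcgr2b*.

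**Figure D4:**
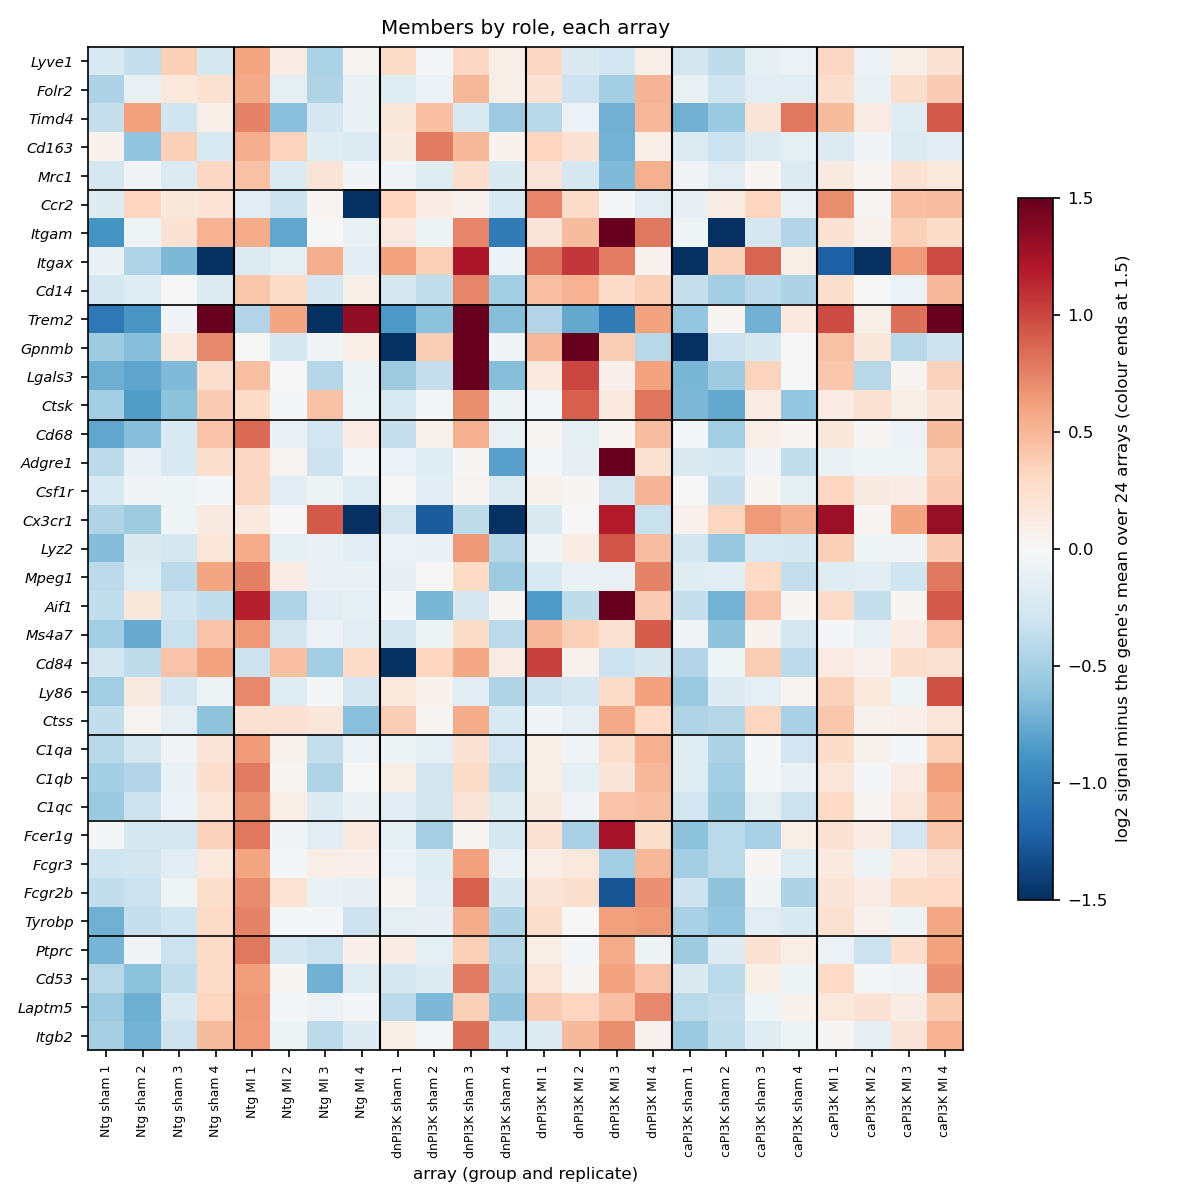
Log2 signal of the 35 genes (one line each, ordered by role) on each of the 24 arrays (columns), as the difference from the gene's mean over the arrays (colour, ending at 1.5 in either direction). Ntg MI replicate 1, Ntg sham replicate 4 and dnPI3K sham replicate 3 are high across most roles within their groups, and dnPI3K MI replicate 3 has *Adgre1* at 11.69 beside *Fcgr2b* at 8.71.

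Complement C1q is the recognition molecule of the classical pathway, and tissue macrophages are a main source of it. Of its 3 chains *C1qa* and *C1qc* rose, and *C1qb* missed the threshold. The genes lie side by side on chromosome 4, *C1qb* at 136880126 to 136886200, *C1qc* at 136889801 to 136892936 and *C1qa* at 136895916 to 136898844 (GRCm38.p6, RefSeq). *C1qa* was 11.27, 11.42, 11.63 and 11.87 on Ntg sham arrays and 12.32, 11.74, 11.33 and 11.59 on Ntg MI arrays. In dnPI3K hearts *C1qa* was 11.61, 11.54, 11.90 and 11.40 after sham and 11.78, 11.63, 11.94 and 12.22 after MI. In caPI3K hearts *C1qa* was 11.50, 11.22, 11.66 and 11.39 after sham and 11.96, 11.75, 11.66 and 12.04 after MI. Groups overlapped in Ntg and dnPI3K hearts, and in caPI3K hearts all 4 MI arrays lay above the sham arrays before rounding. The averaged change was 0.30 (SE 0.09, 0.10 to 0.49), 1.23-fold (adjusted p = 0.0343, limma), lost in 12 of 24 fits without 1 array.

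*C1qc*, whose window holds GAGGAAG on the opposite strand, was 10.15, 10.38, 10.62 and 10.88 on Ntg sham and 11.40, 10.80, 10.51 and 10.61 on Ntg MI arrays. The dnPI3K arrays had *C1qc* at 10.55, 10.43, 10.90 and 10.50 after sham and 10.84, 10.65, 11.13 and 11.16 after MI. The caPI3K arrays had *C1qc* at 10.42, 10.15, 10.57 and 10.38 after sham and 11.0, 10.75, 10.88 and 11.24 after MI. Again only the caPI3K groups were free of overlap. *C1qc* changed by 0.42 (SE 0.10, 0.22 to 0.62), 1.34-fold (adjusted p = 0.0036, limma), and stayed called in each of the 24 fits without 1 array. Without arrays 415 to 418 its adjusted p was 0.103 (limma). For *C1qb* the averaged change was 0.32 (adjusted p = 0.0708, limma).

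Of the Fc receptors and adaptors, *Tyrobp* rose. It encodes DAP12, the adaptor through which Trem2 and other myeloid receptors signal. *Tyrobp* was 9.84, 10.22, 10.27 and 10.85 on Ntg sham and 11.31, 10.55, 10.54 and 10.25 on Ntg MI arrays. Its dnPI3K values were 10.43, 10.44, 11.12 and 10.10 after sham and 10.83, 10.56, 11.18 and 11.20 after MI. Its caPI3K values were 10.08, 9.98, 10.40 and 10.33 after sham and 10.79, 10.63, 10.49 and 11.15 after MI. The caPI3K groups did not overlap. Ntg sham replicate 4 and dnPI3K sham replicate 3 were the highest sham arrays and lay among the MI arrays of their genotypes. The averaged change was 0.45 (SE 0.13, 0.19 to 0.71), 1.37-fold (adjusted p = 0.0159, limma). The other 3, *Fcer1g*, *Fcgr3* and *Fcgr2b*, had averaged changes of 0.41, 0.24 and 0.23 that were not called.

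Of the 4 pan-leukocyte genes *Laptm5* rose, in the average and in dnPI3K hearts alone. It encodes a lysosomal membrane protein of blood cells. *Laptm5* was 9.12, 8.93, 9.44 and 9.98 on Ntg sham and 10.31, 9.64, 9.57 and 9.63 on Ntg MI arrays. The dnPI3K arrays had *Laptm5* at 9.27, 8.99, 10.02 and 9.07 after sham and 10.04, 9.99, 10.12 and 10.38 after MI. The caPI3K arrays had *Laptm5* at 9.26, 9.31, 9.60 and 9.72 after sham and 9.82, 9.88, 9.77 and 10.06 after MI. Sham and MI were separate in caPI3K hearts, and in dnPI3K hearts except for sham replicate 3 at 10.02. Averaged, *Laptm5* rose by 0.54 (SE 0.12, 0.30 to 0.78), 1.45-fold (adjusted p = 0.00236, limma). In dnPI3K hearts it rose by 0.79 (SE 0.21, 0.37 to 1.22), 1.73-fold (adjusted p = 0.0132, limma). This probe set can bind more than one transcript, and 4 other probe sets of *Laptm5* gave averaged changes of 0.23, 0.13, 0.04 and 0.24. In dnPI3K hearts those 4 gave 0.13, 0.00, -0.40 and 0.87. None of the 4 gave a called rise in either comparison, so both calls rested on the probe set read here. *Ptprc*, which encodes CD45, *Cd53* and the integrin gene *Itgb2* had averaged changes of 0.22, 0.31 and 0.27 and were not called.

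**Figure D5:**
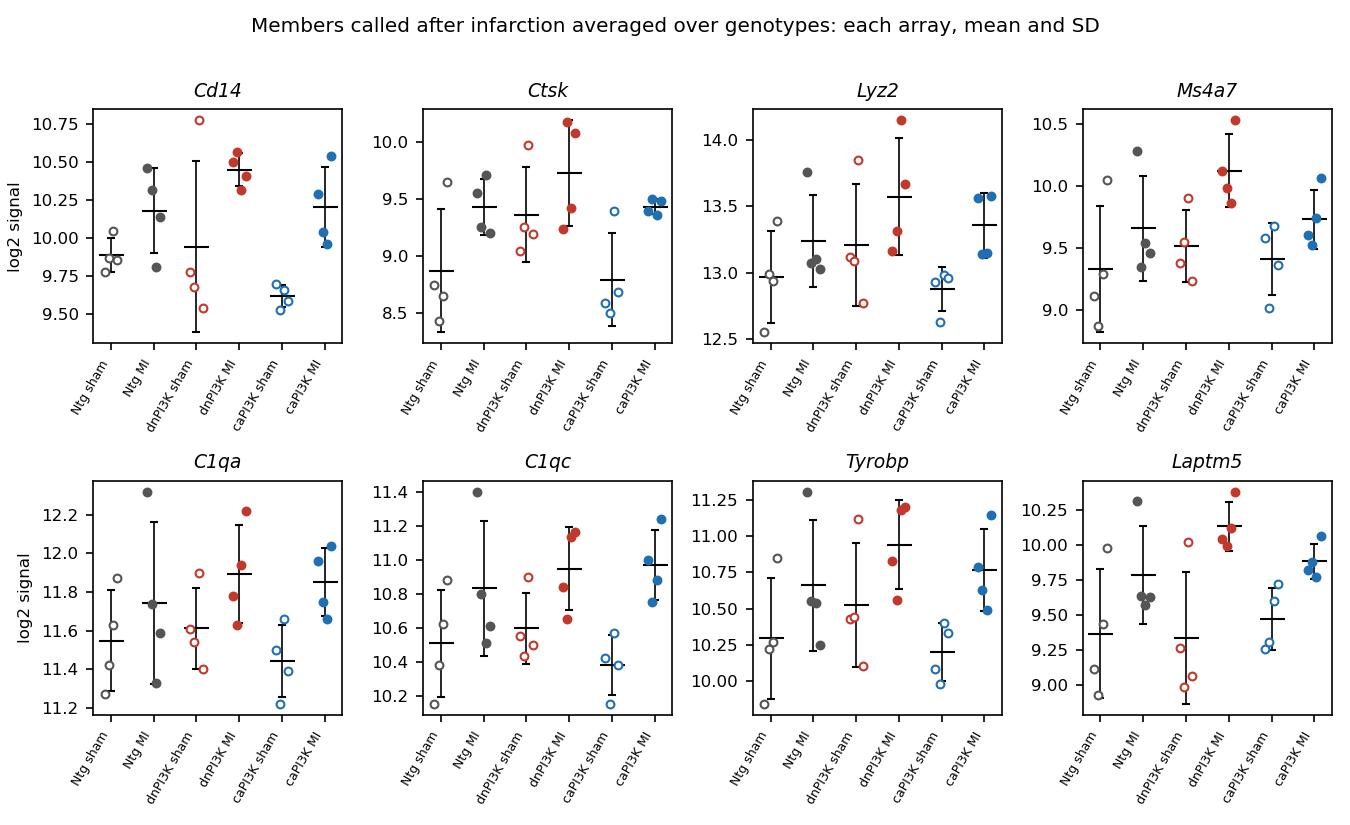
Log2 signal (vertical axis) of the 8 genes that rose after infarction averaged over genotypes, on each array (points; open after sham, filled after MI), with group means and SD (bars, n = 4). The caPI3K sham and MI points are apart for *Cd14*, *Lyz2*, *C1qc*, *Tyrobp* and *Laptm5*, meet for *C1qa* at 11.66, and overlap for *Ctsk* and *Ms4a7*.

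Within single genotypes, with 4 arrays in each group, few members were called. In Ntg hearts limma with Benjamini-Hochberg adjustment called 0 of 35 (2 at an unadjusted p under 0.05, where 12% of all genes were). It called 0.772% of all genes. The median change was 0.26, with 31 of 35 above 0, against 49.2% of all genes. It rested on single arrays: it was 0.04 without Ntg MI replicate 1, the array with the highest median deviation of the members (0.59), and 0.36 without Ntg sham replicate 4. Without arrays 415 to 418 it was 0.05.

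In dnPI3K hearts *Laptm5* was the 1 call of 35, against 9.37% of all genes called and 4.19% called as higher. No other *Laptm5* probe set gave a called rise there. *Cd14* missed at 0.51 (adjusted p = 0.0808, limma), as did *Ms4a7* at 0.61 (adjusted p = 0.0834, limma). At an unadjusted p under 0.05 (limma) the count was 7 of 35, against 21.9% of all genes. The median change was 0.23 and 27 of 35 were above 0, against 51.3% of all genes. By role the resident markers had a median of -0.14, with 1 of 5 above 0, and the recruited markers a median of 0.33, with 4 of 4 above 0. Without MI replicate 3 the resident median was 0.04, with 3 of 5 above 0. In the other 7 fits without 1 dnPI3K array it ran from -0.28 to -0.12. Sham replicate 3 held several members high: without it 4 were called, *Cd14*, *Ms4a7*, *Lgals3* and *Laptm5*, and the median change was 0.38. The share of all genes called in that fit is not given here, so the count has no background. Without sham replicate 4 the median was 0.12. No member was called without sham replicate 2, sham replicate 4 or MI replicate 4, nor without arrays 415 to 418, where 4 members had an unadjusted p under 0.05 (limma).

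In caPI3K hearts 0 of 35 members were called (limma, Benjamini-Hochberg), with 13 at an unadjusted p under 0.05, or 37.1% against 12.1% of all genes. It called 1.11% of all genes. *C1qc* came nearest, at 0.59 (adjusted p = 0.0855, limma). The median change was 0.41, and 34 of 35 were above 0 (49.7% of all genes), the exception being *Itgax* at -0.17. All 5 resident markers were above 0 here, with a median of 0.35, beside 0.47 for the recruited markers, 0.52 for the Fc receptors and adaptors and 0.43 for C1q. On the caPI3K sham array without Y-linked signal *Timd4* was 7.82 and *Cd163* 8.52, above their MI means of 7.36 and 8.5. For these genes the direction rested on the other sham arrays. 12 of the 35, or 34.3%, had all 4 MI arrays above all 4 sham arrays, where 5.09% of all genes did. They were *Folr2*, *Mrc1*, *Itgam*, *Cd14*, *Csf1r*, *Lyz2*, *C1qa*, *C1qb*, *C1qc*, *Fcgr2b*, *Tyrobp* and *Laptm5*. The same count was 0 in Ntg hearts (2.22% of all genes) and 0 in dnPI3K hearts (6.34%). No member lay below in any genotype, where 2.5%, 7.1% and 4.27% of all genes did in Ntg, dnPI3K and caPI3K hearts. Single sham arrays decided the zeros. Without Ntg sham replicate 4 the Ntg count was 7 (8.01% of all genes), and without dnPI3K sham replicate 3 the dnPI3K count was 10 (9.14%). The caPI3K MI group was set against sham arrays of which 3 carried Y-linked signal. With 1 sham array left after these were dropped, 21 members (22.1% of all genes) had every MI array above it. The caPI3K change then had a median of 0.34 over the members, and 0 of 35 members (2 at an unadjusted p under 0.05) and 9 genes were called by limma. Fitted on the caPI3K arrays alone, limma called 6 of 35, *Cd14*, *C1qa*, *Lyz2*, *Fcgr2b*, *C1qc* and *Tyrobp*. In all 3 genotypes together, 23 of 35 members, or 65.7%, had a higher MI mean each time, against 20.2% of all genes, and none had a lower one each time (19.6%).

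Whether infarction moved these genes differently in the 3 genotypes was tested directly as the difference between MI effects. Neither a member nor any other gene was called in any of the 3 differences, where the background was 0% of genes called. At an unadjusted p under 0.05 (limma) the counts were 0 of 35 for dnPI3K minus Ntg, 1 for caPI3K minus Ntg and 1 for caPI3K minus dnPI3K, against 7.6%, 5.53% and 10.2% of all genes. The first was *Ccr2*, at 1.34 (0.13 to 2.54, adjusted p = 0.87), and it was 0.63 without the low Ntg MI array. With the other kept probe sets of *Ccr2* it was -0.53 and 0.44. The second was *Lyve1*, whose MI effect was higher in caPI3K than in dnPI3K hearts by 0.54 (SE 0.24, 0.05 to 1.03, adjusted p = 0.44, limma). The intervals are wide, so the genotypes were not shown to respond alike. All 5 resident markers had the higher MI effect in caPI3K than in dnPI3K hearts, with differences from 0.23 to 0.55, and none was called. They stayed above 0 without each of the 16 arrays of these genotypes in turn, with medians from 0.33 to 0.59. Such fits keep most of the caPI3K sham arrays with Y-linked signal. On the caPI3K sham array without it *Timd4* was 7.82, above its caPI3K MI mean of 7.36, so *Timd4* rested on the others. The sham groups are a term of these differences, so their levels are not a separate result. All 5 were lower in caPI3K than in dnPI3K sham hearts, with a median difference of -0.27. After MI mean *Cd163* was still lower in caPI3K hearts, at 8.5 against 8.63, so its difference lay in the sham groups (8.43 against 9.02). *Lyve1*, *Folr2*, *Timd4* and *Mrc1* had higher means in caPI3K than in dnPI3K hearts after MI. For dnPI3K minus Ntg all 5 were below 0, with a median of -0.14, the lowest being *Cd163* at -0.61 (-1.24 to 0.01). This rested on single arrays. Without dnPI3K MI replicate 3 *Folr2*, *Timd4* and *Mrc1* were above 0 and the median was 0.04. The median was -0.03 without Ntg MI replicate 1 and -0.07 without Ntg sham replicate 1, with 2 of 5 above 0 each time, and it ran to -0.33 without dnPI3K MI replicate 4. The 2 differences share the dnPI3K arrays.

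In sham hearts the genotypes were compared at their starting level. For dnPI3K minus Ntg limma called 0 of 35 (4 at an unadjusted p under 0.05, against 10.8% of all genes), with 1.14% of all genes called. For caPI3K minus Ntg it called 0 of 35 (0 at an unadjusted p under 0.05, against 11.2%), with 0.278%. For caPI3K minus dnPI3K it called 1, *Cx3cr1*, where 9.9% of all genes were called and 5.38% as higher. Mean *Cx3cr1* signal was 7.53 (SD 0.26, n = 4) in caPI3K sham and 6.13 (SD 0.86, n = 4) in dnPI3K sham hearts, and the arrays did not overlap. The difference was 1.40 (SE 0.44, 0.49 to 2.31), 2.64-fold (adjusted p = 0.0426, limma). This call is fragile. It held in 2 of 8 fits without 1 array, and ended without the 3 arrays with Y-linked signal, without arrays 415 to 418, with a pseudocount of 50, with no filter on low signal, with the mean over probe sets and with no intensity trend. A second *Cx3cr1* probe set gave 0.80 (adjusted p = 0.478, limma). *Cd163* and *Lyve1* were lower in caPI3K sham hearts by estimates of -0.59 (adjusted p = 0.0901) and -0.39 (adjusted p = 0.172, limma). Fitted on the 2 sham groups alone, both were called, with adjusted p of 0.0311 and 0.0194 (limma), beside *Cx3cr1*. The share of all genes called in that fit is not given here. Y-linked signal was above *Xist* on 3 of the 4 caPI3K sham arrays and on no dnPI3K sham array, and its part was not tested. The caPI3K sham array without it had the highest *Cd163* (8.52) and *Lyve1* (10.27) of its group. The dnPI3K sham means were 9.02 and 10.52. Of the 35 differences 5 were above 0 (49.8% of all genes), the median was -0.17, and 5 had an unadjusted p under 0.05 (limma; 21.3% of all genes).

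Within groups, most members moved together from array to array. After each group's mean was subtracted, the correlation of each gene with the mean of the other members over the 24 arrays had a median of 0.57, against 0.01 for all tested genes with the mean of the members. The arrays share their scaling, and this is a description. It was above 0.5 for 21 of 35 members, or 60%, and for 4.62% of all genes. *Tyrobp* (0.93), *Cd53* (0.90), *Laptm5* (0.89) and *C1qc* (0.87) were highest. *Itgax* (0.14), *Ccr2* (0.17), *Cd84* (0.20) and *Cd163* (0.22) were lowest, and the first 3 of these are dim. Pairs of C1q chains reached 0.94 to 0.95. Resident markers were spread from 0.22 for *Cd163* to 0.67 for *Folr2*. Outside the set, the genes closest to the mean of the members were *P2ry6* and *Cybb* at 0.86, *Plek* at 0.85, *Plac8* at 0.84, and *Cstb* and *Gpx1* at 0.83. Marker lists of other cells followed the members to different extents: 0.63 for fibroblasts, 0.59 for B cells, 0.47 for neutrophils, 0.23 for endothelium and -0.40 for cardiomyocytes.

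The other genes of the myeloid pathway, taken from lists written with the members, mostly did not pass the test in the averaged comparison. Among 17 growth factors, chemokines and their receptors, 2 rose and none fell, with a median change of 0.12. The chemokine *Ccl9* rose by 0.43 (adjusted p = 0.0386) and *Cx3cl1*, the ligand of Cx3cr1, by 0.40 (adjusted p = 0.0453, limma). Named for their roles after their values were seen, *Ccl2*, the ligand of Ccr2, had a change of 0.33 (adjusted p = 0.342), and the Csf1r ligands *Il34* and *Csf1* changes of 0.29 and 0.11, not called. Of 12 myeloid transcription factors 1 fell, *Mitf*, which many other cell types also express, by 0.34 (adjusted p = 8.73e-04, limma). *Spi1*, which encodes PU.1 and was named for that role, had a change of 0.12 (adjusted p = 0.745, limma), with group means from 6.96 to 7.41. Of 23 genes of activation and phagocytosis 4 rose and 2 fell, with a median of 0.20. *Gas6*, which bridges dying cells to phagocytes, rose by 0.37 (adjusted p = 5.18e-04), its receptor *Axl* by 0.30 (adjusted p = 0.00453) and *Tlr4*, the partner of Cd14, by 0.40 (adjusted p = 0.00209, limma). Which cells of the heart gave the signal of *Gas6*, *Axl* and *Tlr4* was not tested. The 2 that fell, named after their values were seen, were the fatty acid transporter gene *Cd36*, at -0.22 (adjusted p = 0.00582, limma), and *Retnla*, at -0.63 (adjusted p = 0.027, limma). Group means of *Cd36* ran from 14.49 to 14.88, above those of every member, and which cells gave this signal was not tested. *Retnla* is a gene of alternatively activated macrophages that fat cells also express. In dnPI3K hearts *Retnla* had a change of -2.0 (SE 0.33, adjusted p = 3.66e-04, limma). The averaged fall lay mostly there. Mean *Retnla* was 9.81 after sham and 9.61 after MI in Ntg hearts, and it was higher after MI in caPI3K hearts, at 9.19 and 9.48.

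Markers of other cells that heart tissue could hold moved as follows in the same comparison. Of the 10 fibroblast genes 9 rose, among them *Postn* at 1.74 (SE 0.18) and *Pi16* at 1.43. Of 9 cardiomyocyte genes 7 fell and 1 rose, with a median of -0.17. None of 10 neutrophil, 8 T and natural killer cell, 7 B cell, 3 dendritic cell, 4 mast cell, 9 endothelial and 2 red cell genes was called, with medians of -0.19 for neutrophils, -0.07 for T and natural killer cells, 0.18 for B cells and 0.06 for endothelium. Of the lists with no call in the average, the only calls in dnPI3K hearts alone were 2 falls. They were the neutrophil gene *Mpo*, at -1.81 (adjusted p = 0.00874), and the dendritic cell gene *Cd209a*, at -1.4 (adjusted p = 0.0379, limma). Their MI means there were dim, at 5.33 and 5.27. *Cd3e*, a defining T cell gene, had group means of 5.20 to 6.44, near or below the level at the 40th percentile of the arrays (6.29 to 6.85). The part of these other cells in the changes of the members was not tested.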

How the data were processed

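Hearts of 6 groups of mice, 4 arrays each, were measured on Affymetrix arrays. The authors deposited an intensity signal per probe set, made with MAS5 per the submitters' processing notes; aligner and genome build do not apply. The trimmed mean (2% off each end) was 500 on each array, and median signals ran from 103 to 151. Scanner files were not used here. Of 45101 probe sets, 64 controls were left out, 34945 named 1 gene, 932 named several, and 9160 had no name in the platform annotation. Probe sets above their array's 40th percentile on at least 4 arrays were kept (27127), and each gene was read from the brightest, giving 14763 genes. Values were log2(signal + 11.2). limma 3.58.1 (lmFit and eBayes with intensity trend, R 4.3.3) fitted 6 group means with 18 residual degrees of freedom, and p-values were adjusted by Benjamini-Hochberg over all genes. The script was tested on simulated data with known changes. Array intensities carry no counting depth, so the number of arrays limits the precision.

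The members and lists were chosen with earlier results of these data known. Given array by array were members called in any of 10 comparisons, the resident and recruited markers, and the brightest member of each other role; others were named after their values were seen. Of other lists, at most 3 called genes of smallest p were named. Alternatives tried were quantile normalization, pseudocounts of 1 and 50, no filter, the mean over probe sets, fits on the groups compared, no trend, array weights, and leaving out arrays. Centring on the median was added after seeing the data, as were the counts of groups free of overlap, the role medians, scores and differences of MI effects without single arrays, and the signs of other probe sets.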

Additional observations from a re-analysis of the deposited data

Results flagged for a closer look

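Single arrays lay far from the other 3 of their group, by Dixon's test at 95%, in 18 of the 228 groups of values tested, and chance gives about 1 in 20. Each value is log2 signal, followed by the range of the other 3 arrays.

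In Ntg hearts *Ccr2* was 4.15 on MI replicate 4 (6.81 to 7.17) and *Itgax* 6.77 on MI replicate 3 (6.01 to 6.09). Ntg MI replicate 1 was high for *Lyz2*, at 13.76 (13.03 to 13.10), and for *Laptm5*, at 10.31 (9.57 to 9.64). *Ctss* was 10.94 on MI replicate 4 (11.74 to 11.80). Among Ntg sham arrays *Lgals3* was 9.03 on replicate 4 (7.98 to 8.11), *Csf1r* 12.52 on replicate 1 (12.69 to 12.72) and *Aif1* 8.27 on replicate 2 (7.73 to 7.81).

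In dnPI3K hearts sham replicate 3 stood out for *Trem2* at 7.92 (5.28 to 5.53), *Lgals3* at 10.92 (8.14 to 8.43) and *Fcgr3* at 10.69 (9.90 to 9.99). After MI *Adgre1* was 11.69 on replicate 3 (9.41 to 9.76) and *Mpeg1* 10.12 on replicate 4 (9.15 to 9.28).

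In caPI3K hearts *Itgam* was 4.21 on sham replicate 2 (6.34 to 6.71), where *Lyz2* was 12.63 (12.93 to 12.98). *Ctss* was 11.90 on sham replicate 3 (11.09 to 11.15). After MI replicate 4 was high for *Adgre1*, at 9.87 (9.43 to 9.47), and for *Mpeg1*, at 10.16 (9.08 to 9.22). No cause of these values was tested.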

How the results depend on the processing

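No paired analysis was possible because array numbers were unique and replicate numbers followed accession order. Of 35 members, 8 were called in the averaged comparison, with 7 to 9 under other scaling, pseudocounts, no filter, the mean over probe sets (6 of them shared), array weights and centring added after seeing the data. They were 5 with no intensity trend, 0 without arrays 415 to 418 and 3 without the Y-linked sham arrays, with 2004, 1740, 994 and 1070 genes called in that order from the first fit. Leaving out 1 array gave 5 to 12, and *Laptm5*, *Cd14*, *C1qc*, *Ctsk* and *Tyrobp* stayed called each time. Shares of all genes called are not given here for fits without 1 array. In Ntg hearts the count was 0 to 1 without 1 array, with 114 genes called at first and 10 on the groups compared, 30 with no trend, 63 with the mean over probe sets, 9 without arrays 415 to 418 and 290 with array weights. In dnPI3K hearts 1 member became 0 with the mean over probe sets or without arrays 415 to 418 (667 genes in place of 1384), 2 on the groups compared or with array weights, and 0 to 4 without 1 array. In caPI3K hearts 0 became 6 on the groups compared (404 genes in place of 164) and 1 with array weights (424), and 69 genes were called with no trend. For caPI3K minus dnPI3K sham hearts 1 became 0 with a pseudocount of 50, no filter, the mean over probe sets, no trend, without arrays 415 to 418 (609 genes in place of 1461) or without the Y-linked arrays (234), 3 on the groups compared (*Cx3cr1*, *Cd163*, *Lyve1*), and 0 to 2 without 1 array. Counts of members were 0 under each setting run for the other 5 comparisons, where genes called in the differences of MI effects reached 64 of caPI3K minus dnPI3K on the groups compared, 39 with array weights. Genes called in dnPI3K against Ntg sham hearts were 169, and 74 on the groups compared, 107 with no trend, 111 with the mean over probe sets and 41 without arrays 415 to 418. In caPI3K against Ntg sham hearts they were 41, and 6, 0, 18 and 5 in that order, 168 with array weights and 4 without the Y-linked arrays. Of 8 members with another kept probe set, the sign turned on one for 1 in the average (*Ccr2*), 3 in Ntg (*Ccr2*, *Trem2*, *Cd84*), 4 in dnPI3K (*Ccr2*, *Trem2*, *Fcgr2b*, *Laptm5*) and 2 in caPI3K hearts (*Cd84*, *Laptm5*). Other probe sets gave *Laptm5* 0.00 and -0.40 in dnPI3K hearts, and a dim one that was not kept gave *Ms4a7* -0.12 in the average. Causes were not tested. Dim members (*Trem2*, *Itgax*, *Itgam*, *Gpnmb*, *Timd4*, *Cx3cr1*, *Ccr2*, *Cd84*) were not above the 40th percentile on every array, which limits them.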
